A study of Mus musculus with 8 samples.

Results

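The 10 genes described here mark the mural cells of blood vessels. They were taken by symbol from a written list of markers, which was chosen with earlier results of these data known. Of the 24411 genes in the count tables, 7 members mark pericytes (Rgs5, Vtn, Abcc9, Higd1b, Pdgfrb, Cspg4 and Notch3) and 3 mark contractile smooth muscle (Myh11, Tagln and Cnn1). All 10 were measured and all 10 passed the filter on low counts, with 31 to 8673 reads per library. They were compared between 4 YY1 KO mice, in which the transcription factor Yin-Yang 1 (gene Yy1) had been deleted specifically in the heart, and 4 MerCreMer control mice. Both groups are of the C57BL/6 strain, and every heart was collected 1 week after transverse aortic constriction, surgery in which a tie around the aorta overloads the left ventricle with pressure. MerCreMer is a Cre recombinase that stays inactive until a ligand binds it. The sources used here name neither the promoter that drives it, nor the ages of the mice, nor an inducing agent, nor whether the controls carry a modified Yy1 gene. No unoperated heart was analysed here. The series names all mice as male, but Xist was read in 2 YY1 KO and 2 control hearts and Y-linked genes in the other 2 of each genotype, so both genotypes are balanced in this respect. Polyadenylated RNA of whole heart was sequenced to 23869112 to 23966753 reads per library, of which 14582605 to 16000455 were assigned to genes.

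Pericytes sit in the basement membrane of capillaries, in contact with the endothelium, and vascular smooth muscle cells wrap arteries and veins in contractile layers. Endothelial cells recruit and hold both through platelet-derived growth factor B, which acts on the receptor PDGFRβ, and through Notch ligands, which act on NOTCH3 in the mural cell. The heart, with its dense capillary bed, is rich in pericytes. Smooth muscle genes for contraction are switched on by serum response factor (SRF) with its cofactor myocardin at a DNA element named the CArG box. Several members are also read in other cells of the heart, since cardiomyocytes use Abcc9 and activated fibroblasts can express Pdgfrb, Tagln and Cnn1.

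Promoter sequences of 6 members (Rgs5, Vtn, Abcc9, Cspg4, Notch3 and Cnn1) were found in the RefSeq table used (GRCm38). Those of Vtn and Abcc9, the pericyte genes with the lowest ratio of YY1 KO to control level, and of Cnn1, the member that was higher, are shown because they belong to the genes that the results turn on. Each runs 5′ to 3′ on the strand of the gene and stops before the first annotated transcript start, and capitals mark the motif matches in the 250 bases before the RefSeq start. Across the whole window, to 50 bases after that start, Vtn held 3 matches of TGGGAA and 2 of CATTCC, both strands counted, and the further ones are not shown.
Vtn chr11:78498870-78499090 (plus strand): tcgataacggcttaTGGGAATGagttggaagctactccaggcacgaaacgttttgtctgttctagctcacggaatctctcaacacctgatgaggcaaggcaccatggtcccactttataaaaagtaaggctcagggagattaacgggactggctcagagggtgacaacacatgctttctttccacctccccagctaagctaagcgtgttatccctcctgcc
Abcc9 chr6:142702316-142702524 (minus strand): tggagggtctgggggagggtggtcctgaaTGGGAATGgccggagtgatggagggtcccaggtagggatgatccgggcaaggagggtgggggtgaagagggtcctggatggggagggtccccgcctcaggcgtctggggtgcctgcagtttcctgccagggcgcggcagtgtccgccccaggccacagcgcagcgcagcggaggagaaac
Cnn1 chr9:22099003-22099215 (plus strand): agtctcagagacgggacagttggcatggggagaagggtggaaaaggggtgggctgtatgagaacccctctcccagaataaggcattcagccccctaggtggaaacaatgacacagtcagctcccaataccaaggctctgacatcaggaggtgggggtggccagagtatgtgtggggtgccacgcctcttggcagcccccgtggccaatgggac
The capitals in Vtn and Abcc9 are the same 8 letters, in which the Notch-factor (RBPJ) site TGGGAA overlaps the reverse complement of the MCAT element CATTCC. They begin 236 bases before the RefSeq start of Vtn and 221 bases before that of Abcc9. In the 250 bases before the start, TGGGAA or its reverse complement was present in 21.6% and CATTCC or its reverse complement in 12.6% of 32851 promoters of the same length. The YY1 core CCATNTT, read on both strands, was present in 12.4% of them and in 1 member, Cspg4. The CArG box was present in 1.47% of promoters and in none of these 6 windows. Of the smooth muscle members only Cnn1 was among the 6, so Myh11 and Tagln were not searched. A match is a description of letters and was not tested for binding.

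The targeted gene itself fell in YY1 KO hearts. Yy1 stood at 21.04 ± 2.55 CPM (reads of a gene relative to all gene reads of its library, after scaling for library composition) in YY1 KO hearts and at 36.1 ± 1.58 CPM in controls (SD, n = 4 each), with edgeR adjusted p = 0.000769.

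Most of the pericyte genes fell in YY1 KO hearts, whereas of the smooth muscle genes only Cnn1 passed the test, and it rose. Of the 7 pericyte members 5 fell and 0 rose at an adjusted p under 0.05, where 17.3% of the 13506 genes tested fell and 21.6% rose. Vtn, Abcc9, Rgs5, Notch3 and Higd1b were the 5, and Pdgfrb and Cspg4 did not pass. At an unadjusted p under 0.05 the pericyte count was 6 lower and 0 higher, and DESeq2 and limma-voom also called 0 higher. The median log2 fold change of the 7 was −0.66, against 0.01 over all genes tested. Of the 3 smooth muscle members 1 rose (Cnn1) and 0 fell, with Myh11 and Tagln not past the threshold. DESeq2 called 1 of the 3 lower (Myh11), and in edgeR 1 was lower at an unadjusted p under 0.05.

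**Figure D1:**
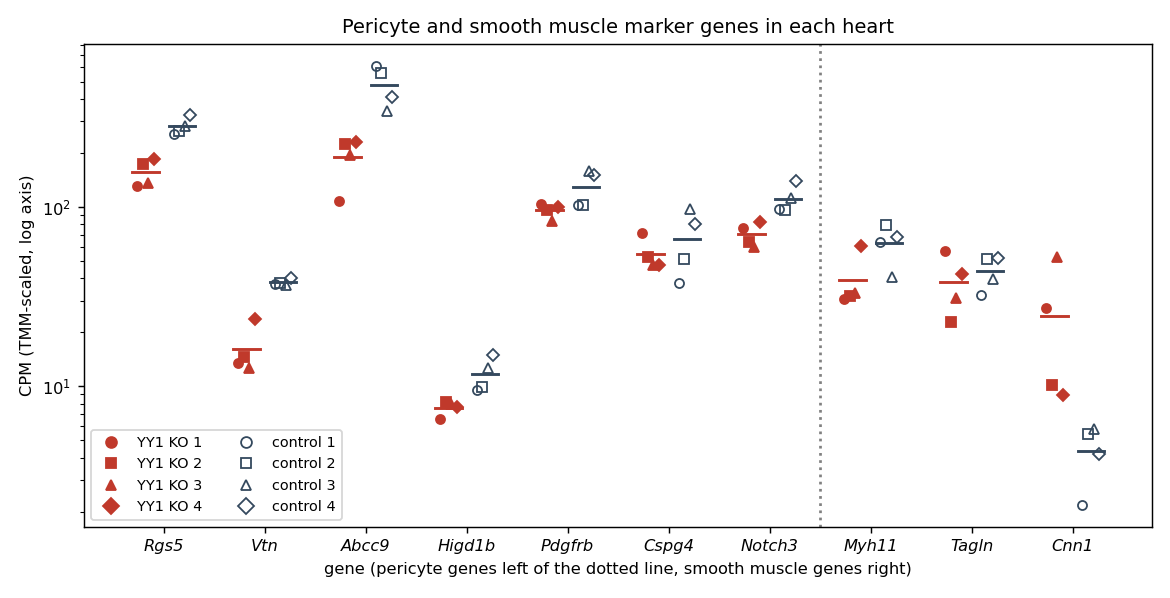
Level of each of the 10 genes in each heart, in CPM on a log axis; filled red symbols are YY1 KO hearts, open symbols are control hearts, symbol shape is the mouse number within its genotype and horizontal lines are group means. Vtn, Abcc9, Rgs5, Notch3 and Higd1b lie lower in all 4 YY1 KO hearts than in any control heart, and Cnn1 lies higher in all 4.

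Groups did not overlap for the same 5 pericyte genes, which lay lower in YY1 KO hearts, and for Cnn1, which lay higher. Such separation was found for 16.5% of all tested genes in the lower and 21.8% in the higher direction. An exact permutation test (two-sided, 70 ways to assign the hearts) returned p = 0.0286 for each of these 6 genes, which is the lower limit in a design of this size. Genes whose groups do not overlap reach that limit, so the value restates the separation and adds nothing to it. Within the Xist-positive hearts alone (2 against 2) all 6 kept their direction, with edgeR adjusted p of 0.123 to 0.189. Within the Y-positive hearts Higd1b (adjusted p = 0.127) and Cnn1 (adjusted p = 0.0597) did not pass and the other 4 did. Heart tissue of mixed cell types was sequenced, so fewer cells of a type and less RNA per cell cannot be told apart in any of these values.

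Vitronectin (Vtn), an adhesive glycoprotein that integrins bind and that marks brain and heart pericytes in mice, fell in YY1 KO hearts. It had 13.4, 14.60, 12.6 and 23.7 CPM in YY1 KO hearts 1 to 4, against 37.0, 37.6, 36.9 and 40.2 CPM in control hearts 1 to 4. The controls were nearly level, and YY1 KO 4 was the highest knockout heart without reaching them. Vtn thus fell by 1.24 ± 0.19 on the log2 scale (SE; edgeR adjusted p = 0.00141), to a knockout mean of 42.4% of the control mean. The gene lies on mm10 chromosome 11 (78499091 to 78502324, plus strand).

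Rgs5, a regulator of G-protein signalling that shortens contractile signals in mural cells, is the pericyte marker with the highest level per exon length among the 10 genes. It had 131, 174, 136 and 185 CPM in YY1 KO hearts 1 to 4, against 254, 267, 284 and 327 CPM in control hearts 1 to 4. All knockout hearts lay below all control hearts, and the log2 fold change was −0.85 ± 0.14 (SE; edgeR adjusted p = 0.00186). Per kilobase of exon the mean level was 34.5 CPM in YY1 KO hearts and 62.2 CPM in controls. The gene is on chromosome 1 (169655501 to 169695813, plus strand).

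Abcc9 encodes SUR2, the regulatory subunit of ATP-sensitive potassium channels. It had 108, 225, 195 and 231 CPM in YY1 KO hearts 1 to 4, against 611, 558, 341 and 410 CPM in control hearts 1 to 4. YY1 KO 1 was the lowest of all hearts, and control 3 the lowest control. Its log2 fold change was −1.34 ± 0.27 (SE; edgeR adjusted p = 0.00448). Splice forms of SUR2 used by cardiomyocytes and by mural cells were not separated in these counts, so the cell source of the gene's reads was not tested. The gene lies on chromosome 6 (142587862 to 142702315, minus strand) and overlaps 5330439B14Rik on the other strand, with 2.18% of its stranded reads on the opposite strand.

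Notch3, the Notch receptor of mural cells, had 76.3, 63.8, 59.96 and 81.9 CPM in YY1 KO hearts 1 to 4, against 97.3, 96.6, 112 and 139 CPM in control hearts 1 to 4. The knockout hearts were all lower, with a log2 fold change of −0.66 ± 0.15 (SE; edgeR adjusted p = 0.00755). Higd1b, a member of the hypoxia-inducible domain family and a compact marker of heart and lung pericytes in mice, had 6.53, 8.15, 7.99 and 7.67 CPM in YY1 KO hearts 1 to 4, against 9.51, 9.896, 12.7 and 14.9 CPM in control hearts 1 to 4. The groups did not overlap, though the gap between YY1 KO 2 and control 1 was narrow. The log2 fold change was −0.63 ± 0.17 (SE; edgeR adjusted p = 0.0165). Notch3 lies on chromosome 17 (32120820 to 32166852, minus strand) and Higd1b on chromosome 11 (102835849 to 102838040, plus strand).

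The remaining pericyte members are the receptor and the proteoglycan by which pericytes are most often stained. Pdgfrb, the receptor for platelet-derived growth factor B, had 104, 96.1, 83.3 and 100.3 CPM in YY1 KO hearts 1 to 4, against 102.1, 102.0, 158 and 152 CPM in control hearts 1 to 4. Controls 1 and 2 stood at the level of the knockout hearts and controls 3 and 4 well above it. The log2 fold change of −0.42 ± 0.16 (SE) did not pass (edgeR adjusted p = 0.0697). It passed at −0.52 without control 1 (adjusted p = 0.0304) and at −0.53 without control 2 (adjusted p = 0.042), and DESeq2 (adjusted p = 0.0284), RLE scaling (adjusted p = 0.0499) and 1 surrogate variable (adjusted p = 0.0177) called it lower as well, so this gene stands at the threshold. Cspg4, the NG2 proteoglycan of pericytes and glial precursors, had 71.9, 52.5, 47.5 and 47.7 CPM in YY1 KO hearts 1 to 4, against 37.7, 51.4, 97.0 and 79.9 CPM in control hearts 1 to 4. Its groups overlapped fully, since control 1 was the lowest and control 3 the highest of the 8 hearts (log2 fold change −0.28 ± 0.28 SE, edgeR adjusted p = 0.453). Cspg4 was read at chromosome 9 (56865033 to 56899870, plus strand).

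**Figure D2:**
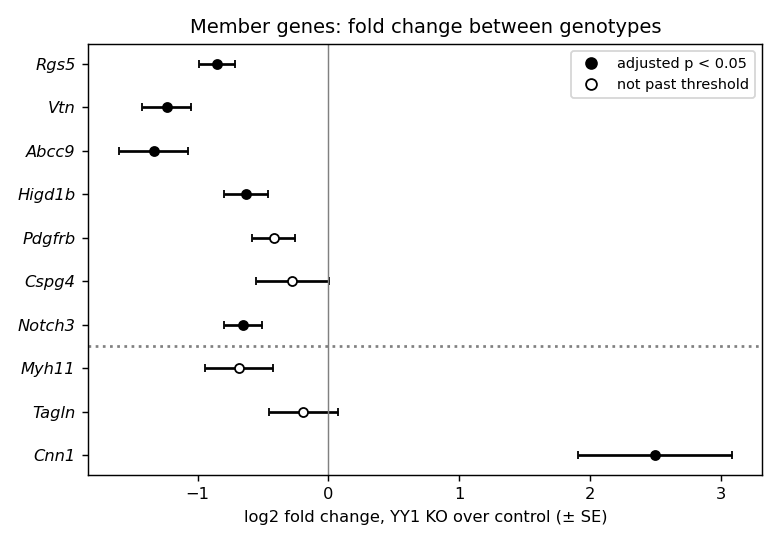
Log2 fold change of each gene, YY1 KO over control, with bars of 1 SE from the edgeR fit; filled points have an adjusted p under 0.05 and the dotted line divides pericyte (above) from smooth muscle genes (below). All 7 pericyte genes have a negative estimate, 5 of them past the threshold, and the smooth muscle genes run between −0.68 for Myh11 and 2.50 for Cnn1.

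The 3 smooth muscle genes encode parts of the contractile apparatus. Myh11, the smooth muscle myosin heavy chain and a restricted marker of this cell type, had 30.8, 32.0, 33.1 and 60.4 CPM in YY1 KO hearts 1 to 4, against 63.4, 78.96, 40.6 and 68.1 CPM in control hearts 1 to 4. Knockouts 1 to 3 lay below every control, while YY1 KO 4 lay above control 3. The log2 fold change of −0.68 ± 0.26 (SE) did not pass (edgeR adjusted p = 0.0651), but without YY1 KO 4 it was −0.97 (adjusted p = 0.00802) and without control 3 −0.85 (adjusted p = 0.0252). YY1 KO 4 also carried reads of atrial genes, with the atrial myosin light chain Myl7 at 11.5 CPM there, against 0.0594 to 0.195 CPM in the other knockouts and 0 to 0.141 CPM in controls. Of the 6 atrial markers, Bmp10 was at 0 in every heart, 3 were tested, and 1 rose (Myl4), 1 fell (Stard10) and 1 did not pass. Their summed level ran from 3005 to 4046 CPM in YY1 KO hearts and from 187 to 4298 CPM in controls. Nearly all of it was Nppa, so the sum does not show what sets YY1 KO 4 apart. Sln was at 3.99 CPM in YY1 KO 4 and at most 0.142 CPM in any other heart. Myl4 was at 24.1 CPM there, against 4.51 to 5.16 CPM in the other knockouts and 1.20 to 2.21 CPM in controls. The part of atrial tissue in the Myh11 values was not tested. Myh11 lies on chromosome 16 (14194535 to 14291372, minus strand).

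Tagln (transgelin, an actin-binding protein of the calponin family) had 56.9, 22.95, 31.2 and 42.2 CPM in YY1 KO hearts 1 to 4, against 32.5, 50.98, 39.7 and 52.0 CPM in control hearts 1 to 4. The groups overlapped, with the highest and the lowest heart both in the knockouts. The log2 fold change was −0.19 ± 0.27 (SE; edgeR adjusted p = 0.594). Tagln overlaps Pcsk7 on the opposite strand of chromosome 9 (45929619 to 45936058), and 10.4% of its stranded reads were on that strand.

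Cnn1 (calponin 1), which binds actin and restrains myosin ATPase in smooth muscle, was the only member with a positive estimate. It had 27.5, 10.1, 52.6 and 8.98 CPM in YY1 KO hearts 1 to 4, against 2.18, 5.41, 5.75 and 4.17 CPM in control hearts 1 to 4. Every knockout heart exceeded every control, but the knockouts themselves fell apart, with YY1 KO 1 and 3 well above YY1 KO 2 and 4. Its log2 fold change was 2.50 ± 0.59 (SE; edgeR adjusted p = 0.00976), and without YY1 KO 3 it was 1.83 (adjusted p = 0.0228). Per kilobase of exon Cnn1 had the lowest mean level of the 10 genes in controls, at 1.601 CPM, against 9.06 CPM in YY1 KO hearts, where it exceeded Myh11 at 5.14 CPM. The ratio of Cnn1 to Myh11 in CPM per kilobase was 2.48, 0.879, 4.42 and 0.413 in YY1 KO hearts 1 to 4, against 0.0957, 0.190, 0.393 and 0.170 in control hearts 1 to 4. The gene lies on chromosome 9 (22099216 to 22109630, plus strand).

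Set against each other by heart, the mean of the 7 pericyte genes separated the genotypes and that of the 3 smooth muscle genes did not. The smooth muscle mean joins Cnn1, with a log2 fold change of 2.50, to Myh11 at −0.68 and Tagln at −0.19. The Myh11 estimate was close to the pericyte median of −0.66, so the contrast does not hold for each smooth muscle gene. The mean of the 7 pericyte genes, in log2 units around the average of all 8 hearts, was −0.49, −0.34, −0.51 and −0.19 in YY1 KO hearts 1 to 4, against 0.20, 0.27, 0.47 and 0.59 in control hearts 1 to 4. YY1 KO 4 was the knockout closest to the controls. The mean of Myh11, Tagln and Cnn1 was 0.502, −0.39, 0.56 and 0.15 in the same knockouts, against −0.61, 0.13, −0.28 and −0.05 in the same controls, so the groups overlapped. Without Cnn1, a choice made after the values were seen, it was −0.05, −0.68, −0.43 and 0.22 in knockouts, against 0.06, 0.55, −0.11 and 0.45 in controls. No test is given for these means, since they are summaries over chosen genes.

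**Figure D3:**
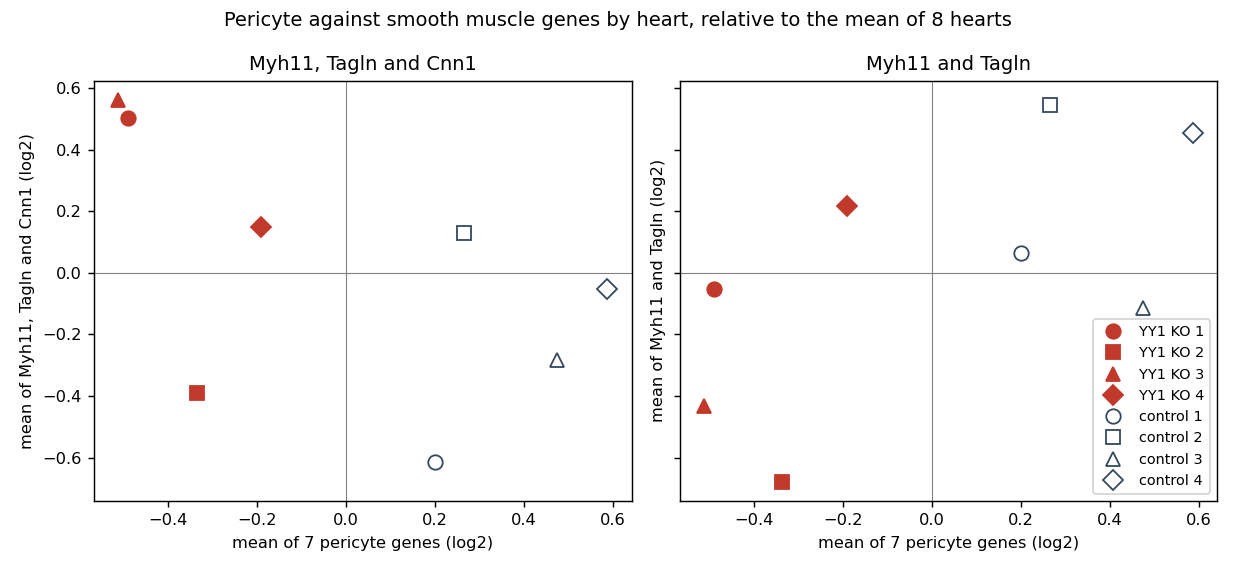
Mean log2 level of the 7 pericyte genes (horizontal) against the mean of Myh11, Tagln and Cnn1 (left, vertical) or of Myh11 and Tagln alone (right, vertical), each relative to the mean of the 8 hearts; filled red symbols are YY1 KO hearts, open symbols are controls, 1 symbol per heart. The genotypes separate along the horizontal axis, from −0.51 to −0.19 in YY1 KO hearts and from 0.20 to 0.59 in controls, and overlap along the vertical axis in both panels.

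A list of other pericyte genes was read alongside the members. The counts of this and the following lists stand beside 17.3% of all tested genes that fell and 21.6% that rose. Of 20 listed genes 19 were tested, of which 11 fell, 1 rose and 7 did not pass, with a median log2 fold change of −0.69. Among those that fell were Steap4, a metalloreductase gene (−0.86 ± 0.13 SE), the calcium-activated chloride channel gene Ano1 (−1.03 ± 0.16), the respiratory subunit gene Cox4i2 (−0.88 ± 0.16), Kcnj8 (−0.72 ± 0.14) and Rgs4 (−0.87 ± 0.19), with edgeR adjusted p of at most 0.00681. Gja4, the connexin 37 gene, which endothelium also uses, was the gene that rose (0.40 ± 0.12 SE, adjusted p = 0.0293). That call was lost without control 1 or 2 or YY1 KO 1, 2 or 4. Mcam (−0.69 ± 0.33 SE, adjusted p = 0.131) and Ebf1 (−0.47 ± 0.17, adjusted p = 0.056) were among those that did not pass, and Tbx18, a mural cell transcription factor gene, had a log2 fold change of 0.23 ± 0.12 (SE; adjusted p = 0.164).

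The contractile genes of smooth muscle split. Of 23 genes 8 rose, 5 fell and 10 did not pass, and the median log2 fold change was 0.08. Those with the smallest p among the 8 that rose were Synm (1.71 ± 0.14 SE), Synpo2 (1.12 ± 0.21), Tpm2 (1.36 ± 0.26) and Fbln5 (1.14 ± 0.25), with edgeR adjusted p of at most 0.0068. Synm and Synpo2 are also genes of striated muscle, and Fbln5 encodes an elastic fibre protein that fibroblasts make too. The list also holds Tpm1, which rose (0.65 ± 0.18 SE, edgeR adjusted p = 0.0196), and Pln, a cardiomyocyte marker here, which did not pass. Tpm1 had mean levels of 19260 CPM in YY1 KO hearts and 12320 CPM in controls, and Pln of 4043 and 4202 CPM. Both stood far above the rest of the list, and the part of cardiomyocytes in these counts was not tested. Smtn (smoothelin) fell by 1.30 ± 0.16 on the log2 scale (adjusted p = 0.000651), and so did the myosin phosphatase subunit gene Ppp1r12b (−0.53 ± 0.11, adjusted p = 0.00587). Kcnmb1 (−0.82 ± 0.23), Itga8 (−1.30 ± 0.40) and the myosin light chain kinase gene Mylk (−0.61 ± 0.19) fell with adjusted p of at most 0.0298. Acta2, smooth muscle α-actin, did not pass, with 384, 134, 292 and 256 CPM in YY1 KO hearts 1 to 4, against 207, 156, 117 and 223 CPM in control hearts 1 to 4 (log2 fold change 0.60 ± 0.31 SE, adjusted p = 0.15). The count of higher genes was 5 without control 2 or YY1 KO 3. The number that fell dropped to 3 if control 2 or YY1 KO 1 was left out, and to 2 if control 4 or YY1 KO 3 was.

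**Figure D4:**
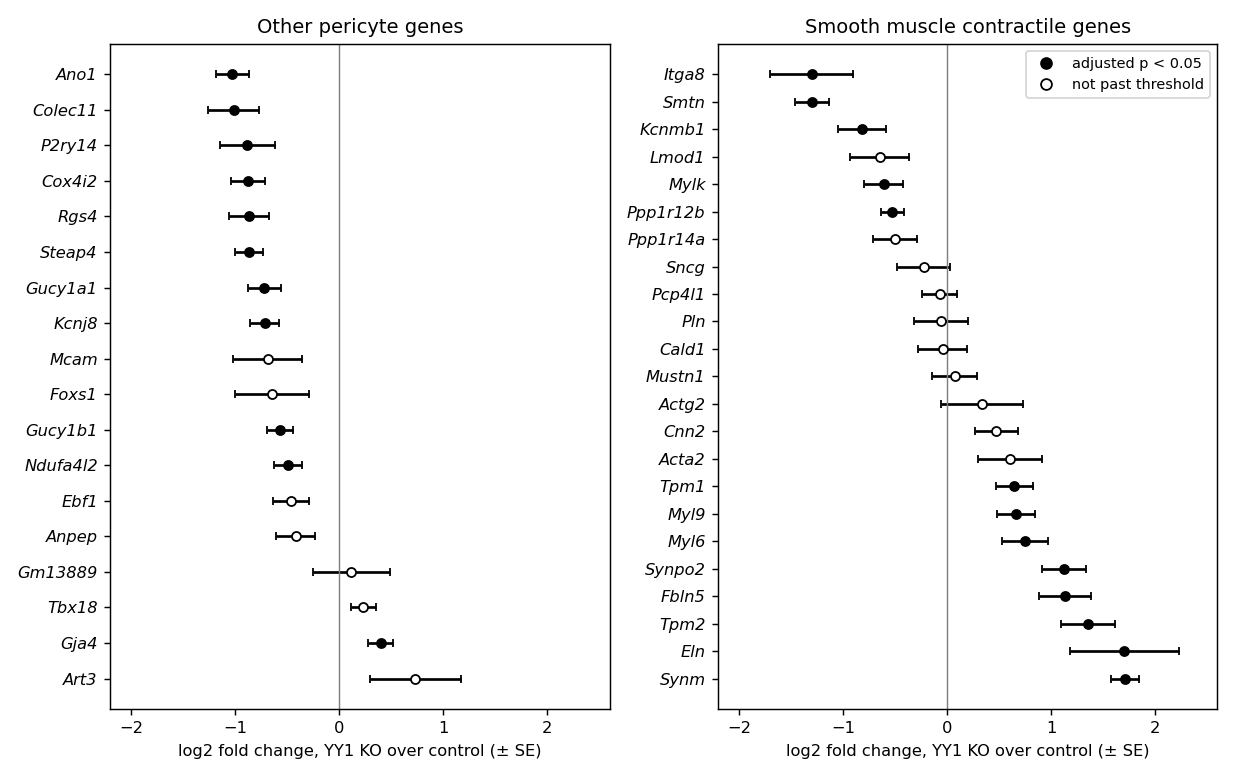
Log2 fold change, YY1 KO over control, of tested genes of the other pericyte list (left, 1 gene that fell not drawn) and of the smooth muscle contractile list (right), with bars of 1 SE and filled points for an adjusted p under 0.05. On the left 10 genes are lower and 1 is higher, on the right 5 are lower and 8 are higher.

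Ligands and receptors that hold mural cells to the endothelium were lower in part. Pdgfb, the endothelial ligand of PDGFRβ, had 42.8, 46.5, 36.1 and 55.2 CPM in YY1 KO hearts 1 to 4, against 66.1, 84.4, 122 and 93.4 CPM in control hearts 1 to 4, and fell by 1.02 ± 0.19 on the log2 scale (SE; edgeR adjusted p = 0.00359). Of the other 4 genes of this family Pdgfra, the fibroblast receptor, rose (0.39 ± 0.11 SE, adjusted p = 0.0231), a call that was lost when control 1, control 2, YY1 KO 3 or YY1 KO 4 was left out. Pdgfa, Pdgfc and Pdgfd did not pass. In the Notch list 5 of 16 genes fell and 0 rose (0 at an unadjusted p under 0.05 and 0 in DESeq2). The ligand genes Dll4 (−0.87 ± 0.20 SE, adjusted p = 0.00881) and Jag1 (−0.45 ± 0.15, adjusted p = 0.0364), the receptor gene Notch1 (−0.75 ± 0.16, adjusted p = 0.00548), the coactivator gene Maml1 (−0.55 ± 0.09, adjusted p = 0.00183) and the target Nrarp (−1.09 ± 0.30, adjusted p = 0.0179) were the 5. Heyl, a target of NOTCH3 in mural cells, did not pass (−0.40 ± 0.24 SE, adjusted p = 0.213). The count of lower Notch genes was 8 without control 1 and 3 without YY1 KO 3.

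The channel partners of SUR2 were not alike. Kcnj8, the pore subunit Kir6.1 that mural cells use, had 24.2, 33.6, 20.5 and 28.1 CPM in YY1 KO hearts 1 to 4, against 46.8, 41.6, 44.2 and 42.6 CPM in control hearts 1 to 4 (edgeR adjusted p = 0.00436). Kcnj11, the pore subunit Kir6.2 of cardiomyocytes, had a log2 fold change of −0.505 ± 0.233 (SE; adjusted p = 0.116), and Abcc8, which encodes the related subunit SUR1, one of 0.10 ± 0.18 (adjusted p = 0.675). Without YY1 KO 2 the count of lower KATP genes among Kcnj8, Kcnj11 and Abcc8 was 2. In CPM per kilobase of exon, Abcc9 exceeded Kcnj8 1.36 to 2.897 times in YY1 KO hearts and 2.35 to 4.09 times in controls. On that scale the control means were 57.3 for Abcc9, 56.3 for Kcnj11 and 17.2 for Kcnj8. The YY1 KO means were 22.7, 39.7 and 10.4. In controls Abcc9 thus stood at the level of the cardiomyocyte pore subunit, and the part of cardiomyocytes in its reads was not tested.

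Partners of vitronectin moved in the opposite direction to Vtn in part. Of 8 genes tested 3 rose, 1 fell and 4 did not pass, with a median log2 fold change of 0.34. The integrin subunit genes Itgb5 (0.84 ± 0.13 SE, edgeR adjusted p = 0.00134) and Itgav (0.57 ± 0.17, adjusted p = 0.0268) rose, and the urokinase gene Plau fell (−1.29 ± 0.34, adjusted p = 0.0157). The Plau call was lost without YY1 KO 3. In the RGS family 12 of 16 genes were tested. Of these 2 fell (Rgs4, and Rgs16 at −1.44 ± 0.44 SE, adjusted p = 0.0289) and 0 rose (0 at an unadjusted p under 0.05 and 0 in DESeq2), and the count of lower genes was 1 without control 4 or YY1 KO 2, 3 or 4. Of the relatives of Cnn1 and Tagln, 0 of 4 passed (Cnn2, Cnn3, Tagln2 and Tagln3; 1 at an unadjusted p under 0.05, Cnn2, and 0 in DESeq2), though 1 was higher without YY1 KO 4 and 1 lower without control 1. Of the relatives of Higd1b, Higd1c was at 0 in every heart and Higd1a (−0.12 ± 0.11 SE, adjusted p = 0.41) and Higd2a (−0.17 ± 0.13, adjusted p = 0.302) did not pass (0 at an unadjusted p under 0.05 and 0 in DESeq2).

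In the SRF and myocardin list of smooth muscle regulators 16 of 17 genes were tested, of which 4 fell and 2 rose, counts near or below the shares of 17.3% and 21.6% over all genes. Srf fell by 0.36 ± 0.08 on the log2 scale (SE; edgeR adjusted p = 0.00895) and Fhl2, an SRF cofactor that cardiomyocytes also express, fell by 1.83 ± 0.17 (adjusted p = 0.000249). Klf4 and Elk4, which oppose myocardin, fell as well (−0.52 ± 0.16, adjusted p = 0.0293, and −0.505 ± 0.163, adjusted p = 0.0358), and Rock2 (0.605 ± 0.158, adjusted p = 0.0154) and Yap1 (0.38 ± 0.12, adjusted p = 0.0373) rose. Myocd itself did not pass (−0.18 ± 0.17, adjusted p = 0.431). The count of lower genes was 2 without control 2, and that of higher genes was 1 without any single library other than YY1 KO 4.

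Markers of neighbouring cell types were read in the same hearts, and their part in the member values was not tested. Of all tested genes 17.3% fell and 21.6% rose, and the counts of the fibroblast, activated fibroblast and macrophage lists were not above those shares. Their estimates were not all near 0, however. The median log2 fold change was 0.37 for the fibroblast, 1.11 for the activated fibroblast and −0.10 for the macrophage list, against 0.01 over all genes tested. Of the 10 genes in each, 2, 2 and 8 had a negative estimate. The endothelial list had a median of −0.53, with 10 of 10 estimates negative, and the cardiomyocyte list one of −0.38, with 8 of 10 negative. A negative median was therefore not particular to the pericyte genes. Beside the pericyte genes, 6 of 10 endothelial markers fell and 0 rose (0 at an unadjusted p under 0.05 and 0 in DESeq2), and their summed level was 1038 to 1279 CPM in YY1 KO hearts and 1487 to 2062 CPM in controls. Beside Abcc9, 3 of 10 cardiomyocyte markers fell (Actc1, Myl2 and Myl3) and 1 rose (Mybpc3), with a summed level of 63190 to 87680 CPM in YY1 KO hearts and 87730 to 113300 CPM in controls. Beside Cnn1, 2 of 10 markers of activated fibroblasts rose (Ltbp2 and Comp), with sums of 1058 to 3594 CPM in YY1 KO hearts and 370.1 to 1781 CPM in controls. Of 10 general fibroblast markers 1 rose (Pdgfra), with sums of 3632 to 4588 CPM in YY1 KO hearts and 2678 to 3720 CPM in controls. Macrophage markers gave 0 calls among 10 in edgeR (0 at an unadjusted p under 0.05 and 0 in DESeq2), with sums of 420.1 to 573.7 CPM in YY1 KO hearts and 348.8 to 606.3 CPM in controls. Of the rarer cell types, 2 of 7 tested Schwann cell markers, 1 of 2 lymphocyte markers (Cd4) and the 1 tested adipocyte marker (Fabp4) fell, and the epicardial Wt1 and the erythroid Alas2 did not pass.

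Hearts of the same genotype varied in their own way, described here after the genotype means were removed, over 8 hearts that share their libraries and scaling. Abcc9 and Cspg4 varied in opposition (Pearson r = −0.85) and Pdgfrb and Cspg4 together (r = 0.895), while Rgs5 varied with Vtn at r = 0.74 and Vtn with Myh11 at r = 0.75. Among 13016 genes, the 3 that varied most like Abcc9 were Ucp3, Asb15 and Dgat2 (r = 0.98 to 0.99), and for Myh11 they were Slc12a9, Ppp1r12b and Fam65c (r = 0.955 to 0.97). Of these Ppp1r12b is in the contractile list. For the other 8 members the first gene was Arhgap8 for Rgs5, Srp72 for Vtn, Zmiz1 for Higd1b, Rdh11 for Pdgfrb, Msn for Cspg4, Nsf for Notch3, Slc35a2 for Tagln and Fam131b for Cnn1. With so few hearts such values describe these libraries alone.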

How the data were processed

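The authors deposited 1 table of raw read counts per gene symbol for each of 8 hearts. Trimmomatic, STAR and the mm10 build are named in the submitters' processing notes, with no version, setting or annotation. Counts irrespective of strand were used. Between 33.0 and 38.9% of reads were not assigned to a gene, and those lines stayed out of library sizes and tests. Libraries of a group differed by more than sampling noise (chi-square over its degrees of freedom, 14.6 to 97.4 in 12 pairs), so each counted as 1 replicate. The labels number the mice and name no shared litter, and p-values measure the spread between these samples.

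Genes were kept with filterByExpr (minimum count 10, 0.648 CPM, in 4 libraries), leaving 13506. The test was the robust quasi-likelihood F test of edgeR 4.0.16 in R 4.3.3, after TMM scaling, with genotype alone in the model and Benjamini-Hochberg adjustment over all of them and a threshold of 0.05. Standard errors are the fold change divided by the square root of F. On simulated counts over 13393 genes in this design, the test recovered 58% of 2-fold and 12.1% of 1.5-fold changes, with 7.89% of calls false. Far fewer genes were changed in the simulation, which gave 76 calls, against 2911 higher and 2337 lower genes in the data. Recovery after adjustment depends on that share, so these values do not give the recovery in the data. Positions and exon lengths are from GENCODE M21 (24057 of 24411 symbols matched). Mrtfa was read under its older symbol Mkl1. The 10 members, the lists and the rule for named genes (the members, up to 6 of each list with the smallest p, and family members, ligands or receptors) were chosen with earlier results of these data known. Gja4, Mcam, Ebf1, Tbx18, Tpm1, Pln, Kcnmb1, Itga8, Mylk, Acta2, Heyl, Myocd, Myl7, Sln, Nppa and Bmp10 fall outside that rule and were named after their values were seen. Alternatives were RLE, upper quartile and no scaling, DESeq2 1.42.0, limma-voom (limma 3.58.1), 2 filters, sense-strand counts, the replicate number as a block, a term for sex, 1 surrogate variable (sva 3.50.0) and the omission of single libraries. Separate fits for Xist-positive and for Y-positive hearts were chosen after seeing the data. Some genes of the lists are counted but not reported here by name. Figures were drawn with matplotlib 3.10.9 in Python 3.11.15.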

Additional observations from a re-analysis of the deposited data

Results flagged for a closer look

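Myh11 in YY1 KO 4, at 60.4 CPM, lay far from the other 3 YY1 KO hearts (30.8 to 33.1 CPM), further than expected for a group of 4 in which chance alone picks out about 1 in 20. It was the only such value in 22 groups of 4 checked for the 10 members and Yy1, which is about the number that this rate would pick out by chance. Vtn was also highest in YY1 KO 4 among the knockouts, at 23.7 CPM, but not by enough to be picked out.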

How the results depend on the processing

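Over the 21 alternatives, the direction of 9 of the 11 genes followed (the 10 members and Yy1) was kept throughout. The exceptions were Cspg4 and Tagln, which turned to 0.024 and 0.23 on the log2 scale within the Xist-positive hearts. Leaving out each library gave 5 to 6 lower and 0 higher pericyte members, 1 higher and 0 to 1 lower smooth muscle members, and 2192 to 2905 higher and 1668 to 2439 lower genes in all. DESeq2 called 1 smooth muscle member lower, Myh11. Within the Xist-positive hearts (2 against 2), edgeR called 0 genes higher and 0 lower in all (1852 and 1599 at an unadjusted p under 0.05), and so 0 pericyte members lower (5 unadjusted) and 0 smooth muscle members higher (1 unadjusted). Within the Y-positive hearts 1730 genes were higher, with 0 smooth muscle members higher (1 unadjusted) and 1 lower (Tagln). With the replicate number as a block 2210 genes were higher and 1816 lower, and 5 pericyte members were lower and 1 smooth muscle member higher. The block left every member on its side of the threshold; among the other lists it gave 4 higher contractile genes, 1 higher and 0 lower vitronectin partners, 1 lower RGS gene and 0 higher other pericyte genes. The correlations between same-numbered hearts ran from −0.46 to 0.34. By sex reads the same-numbered hearts matched, with Xist in hearts 1 and 4 and Y-linked genes in hearts 2 and 3 of both genotypes. These values cannot settle whether the numbers pair the mice in some other way. Without centring within genotype, the lowest correlation of a member with its closest gene was 0.939, against 0.967, and 7 of the 30 closest genes were shared. A scaling method moved the median of all genes by at most 0.06 on the log2 scale. Read counts of the members were lowest for Cnn1, at 31 in 1 control library. For all these shifts the cause was not tested.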
